A study of Mus musculus with 18 samples.

Results

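The genes described here are 31 genes of glucose uptake, glycolysis, glycogen turnover and pyruvate oxidation, taken by symbol from the 46983 gene symbols of a count table of mouse heart RNA. They comprise the glucose transporters Slc2a1 and Slc2a4, the hexose phosphate enzymes Hk1, Hk2 and Gpi1, the phosphofructokinase group Pfkm, Pfkl, Pfkp, Pfkfb1 and Pfkfb2, the lower glycolytic enzymes Aldoa, Tpi1, Gapdh, Pgk1, Pgam1, Pgam2, Eno1, Eno3 and Pkm, the lactate dehydrogenases Ldha and Ldhb, the glycogen genes Pygb, Pygm, Gys1, Ugp2 and Gbe1, and the pyruvate dehydrogenase genes Pdha1, Pdhb, Dlat, Pdk1 and Pdk2. They were chosen by name, as genes of these pathways, with earlier results of these data known.

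The hearts came from adult mice of 8 to 10 weeks that had either a sham operation or surgery to tie off the LAD, the coronary artery that feeds much of the left ventricle, which causes an infarct, and RNA was collected 6 weeks after surgery. Mice were labelled control, with no further detail of their alleles, or carried a conditional knockout of Salvador (Salv cKO), the adaptor protein of the Hippo kinase cascade, which the gene Sav1 encodes. Either whole-heart total RNA was sequenced or RNA from translating ribosome affinity purification (TRAP), in which ribosomes tagged in cardiomyocytes are pulled down with the messages they carry. TRAP RNA was measured in sham control, sham Salv cKO, infarcted control and infarcted Salv cKO hearts and total RNA in infarcted control and infarcted Salv cKO hearts, with 3 libraries in each of the 6 groups. The Cre driver, the promoter of the ribosomal tag, and whether a library is 1 heart or a pool are not stated in the labels. The p-values therefore cover only the spread among the libraries, which may be technical.

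Glycolysis splits glucose to pyruvate in the cytosol. Hexokinase traps glucose in the cell, phosphofructokinase sets the pace, and the lower enzymes from aldolase to pyruvate kinase recover ATP. Lactate dehydrogenase interconverts pyruvate and lactate, and the pyruvate dehydrogenase complex commits pyruvate to oxidation unless pyruvate dehydrogenase kinases (Pdk1, Pdk2) phosphorylate it. The adult heart draws most of its ATP from fatty acids and uses glucose, lactate and its glycogen store more under stress. Many of these steps have a muscle isoenzyme (Slc2a4, Pfkm, Pgam2, Eno3, Pygm) and a more widely expressed one (Slc2a1, Pfkl, Pgam1, Eno1, Pygb).

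Library totals ran from 3240871 to 24135877 counts, and the 31 genes took 1.74 to 2.28% of the counts outside the mitochondrial genome. Mitochondrial transcripts were 15.8 to 29.0% of total RNA counts and 0.202 to 0.532% of TRAP counts. In TRAP RNA they were 0.459% ± 0.075 (SD, n = 3) in the sham Salv cKO group and 0.251% ± 0.053 (SD, n = 3) in the sham control group. Y chromosome genes had 567 counts in sham control replicate 2 and 659 in sham Salv cKO replicate 3, and no more than 7 in any other library. Sav1 stood at 6.24 to 8.79 CPM (counts scaled to library size as set out below) in sham control TRAP libraries and at 2.65, 1.14 and 10.1 CPM in those labelled sham Salv cKO. After infarction the Sav1 ranges of the genotypes overlapped in TRAP RNA (5.01 to 7.90 CPM in controls, 4.02 to 6.76 in Salv cKO) and in total RNA. Gene counts include any part of Sav1 that the deletion leaves. The library labelled sham Salv cKO replicate 3 thus held both Y chromosome counts and the highest Sav1 level of the TRAP libraries, and for the named genes values without it and sham control replicate 2 are given where a result rests on sham libraries. Pygl, a neighbour of Sav1 on chromosome 12, did separate the genotypes by label: it was 14.8 to 24.13 CPM in the 6 TRAP libraries labelled Salv cKO and 3.40 to 5.13 CPM in the 6 TRAP controls.

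Levels are given below as CPM after trimmed mean of M values (TMM) scaling over all 18 libraries, and levels of different genes are compared as CPM per kb of annotated exon, except for the isoenzyme shares, which are shares of counts. Muscle isoenzymes led the TRAP libraries. Pgam2, the muscle phosphoglycerate mutase, was the highest of the 31 genes in each of the 4 TRAP groups, with group means of 2884 to 6021 CPM per kb. Next in all 4 came Eno3, the muscle beta-enolase, with 2054 to 2176 CPM per kb, and Ldhb, the lactate dehydrogenase subunit typical of heart, with 1090 to 1384 CPM per kb. Aldoa (aldolase) and Tpi1 (triosephosphate isomerase) followed, at 604 to 937 and 479 to 615 CPM per kb. At the other end, Slc2a1, Pgam1, Pfkfb1 and Pfkfb2 held the lowest 4 places in 4 of 4 TRAP groups, none above 3.02 CPM per kb. Whole-heart RNA had a different order, with Aldoa, Ldhb and Eno3 at 402 to 619 CPM per kb, ahead of Gapdh at 277 and 440 CPM per kb.

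Within isoenzyme pairs, counts in TRAP RNA lay mostly with the muscle or insulin-responsive form, glycogen phosphorylase excepted. Slc2a4, the insulin-responsive GLUT4, gave 97.8 to 99.1% of the counts of Slc2a4 and Slc2a1, the basal GLUT1, in the 12 TRAP libraries. Pgam2 gave 99.9 to 100% of its pair and Eno3 96.9 to 99.6% of its pair. Pygm, muscle glycogen phosphorylase, gave only 1.26 to 11.9% of the counts of Pygm and Pygb, the brain form, in TRAP RNA, against 24.3 to 36.9% in total RNA. In total RNA Eno3 gave 60.5 to 94.9% of its counts with Eno1, the ubiquitous alpha-enolase. Ldhb stayed between 56.9 and 71.7% of lactate dehydrogenase counts over all 18 libraries. Hk2, the hexokinase that responds to insulin and contraction, gave 73.5% ± 5.7 (SD, n = 3) of the counts of Hk1 and Hk2 in sham control TRAP RNA and 82.1% ± 6.0 in sham Salv cKO, against 63.2% ± 1.2 and 62.6% ± 7.0 in infarcted controls and infarcted Salv cKO. These shares are descriptions, not tests, and do not correct for transcript length.

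**Figure D1:**
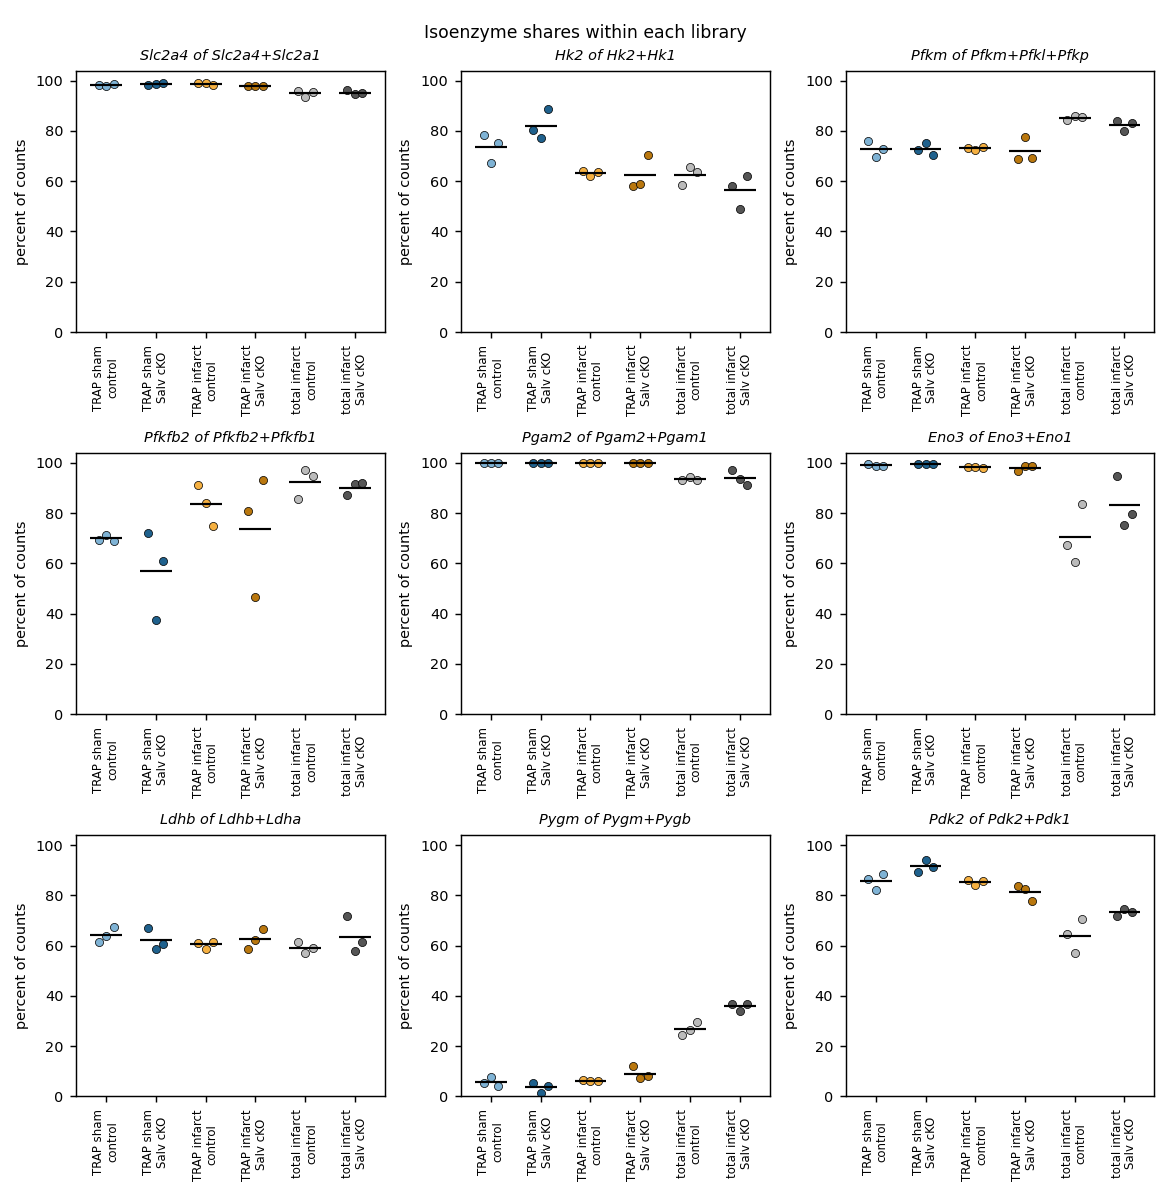
Isoenzyme shares in each library: the vertical axis of each panel is the percent of the pair's or trio's counts held by the first gene named, and the horizontal axis the 6 groups. Points are libraries (3 a group) and lines are group means; the Pygm share lies at 11.9% or less in TRAP libraries and at 24.3% or more in total RNA.

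The infarction response of Salv cKO cardiomyocytes was the comparison of TRAP groups with the most changes among these genes. Between infarcted and sham Salv cKO hearts, 8 of the 30 genes tested passed an adjusted p of 0.05, against 18.2% of all 11393 genes tested, and Pgam1 fell under the low-count filter. The 5 that rose were Eno1, Pgk1, Pygm, Gapdh and Pdk1, and the 3 that fell were Hk2, Pgam2 and Pdk2. Of all genes tested, 7.56% rose and 10.6% fell. The libraries of the 2 groups did not overlap for 15 of the 30 genes (9 higher, 6 lower), against 35.7% of all genes (18.4% higher, 17.3% lower). The median log2 fold change was 0.16 over the 30 genes and 0.02 over all genes. Tests are edgeR quasi-likelihood tests with Benjamini-Hochberg adjustment over all genes, two-sided, on 3 against 3 libraries.

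The 3 lower glycolytic genes that rose encode glyceraldehyde-3-phosphate dehydrogenase (Gapdh), phosphoglycerate kinase (Pgk1), which takes the next step and makes the first ATP of the pathway, and alpha-enolase (Eno1), which acts after phosphoglycerate mutase. Gapdh (chr6:125161715-125166467, minus strand) was at 317, 226 and 270.1 CPM in the sham Salv cKO libraries and at 827, 795 and 650.3 CPM in the infarcted ones. All infarcted libraries lay above all sham libraries, and the log2 fold change was 1.46 ± 0.18 (SE), a 2.74-fold difference with an edgeR adjusted p of 4.47e-05. Eno1 (chr4:150236721-150248879, plus strand) was at 19.3, 17.1 and 14.3 CPM after sham and at 99.8, 61.4 and 45.7 CPM after infarction. The groups did not overlap, and the 4.03-fold difference (log2 2.01 ± 0.28, SE) had an edgeR adjusted p of 9.12e-05.

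Pgk1 (chrX:106187100-106203699, plus strand) was at 31.5, 21.3 and 19.4 CPM in sham Salv cKO and at 85.6, 93.4 and 91.6 CPM in infarcted Salv cKO libraries, again without overlap. Its log2 fold change was 1.88 ± 0.24 (SE), with an edgeR adjusted p of 4.91e-05. Its size depended on how copies were counted: the processed pseudogene Pgk1-rs7, which shares 1255 aligned bases with Pgk1 at 100% identity, had 34.1 ± 16.2 CPM in sham Salv cKO TRAP RNA (SD, n = 3) and 11.8 ± 3.76 CPM in infarcted Salv cKO. With Pgk1 and its 2 near-identical copies summed, the log2 fold change was 0.79 and the edgeR adjusted p 0.00877. How reads that match several places were assigned is not given in the sources used here. Gapdh, with 88 near-identical copies while 92.1% of the summed counts were its own, and Eno1, with 3, were less affected: summed with their copies they gave log2 fold changes of 1.40 and 1.89.

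Pgam2 and Hk2 moved the other way. Pgam2 (chr11:5801640-5803733, minus strand) was at 5088, 4585 and 5499 CPM in sham Salv cKO libraries and at 2071, 2129 and 3068 CPM in infarcted ones. The infarcted libraries were all lower, and the log2 fold change was -1.09 ± 0.17 (SE; edgeR adjusted p 0.000200). Hk2 (chr6:82725025-82774454, minus strand) was at 939, 687 and 1302 CPM after sham and at 409.9, 348 and 585 CPM after infarction, a log2 fold change of -1.15 ± 0.24 (SE) with an edgeR adjusted p of 0.00338. Hk1, the constitutive hexokinase, was at 227, 205 and 166 CPM and then at 295, 242 and 243 CPM, and its log2 fold change of 0.36 did not pass (edgeR adjusted p 0.128).

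Among glycogen and pyruvate genes, Pygm (chr19:6384399-6398459, plus strand) was at 31.1, 9.90 and 25.7 CPM in sham Salv cKO libraries and at 87.2, 74.2 and 55.4 CPM in infarcted ones. It rose 3.18-fold (log2 1.67 ± 0.32, SE; edgeR adjusted p 0.00216), and the sham replicate 2 value was the lowest of all 18 libraries. Gys1, muscle glycogen synthase, had a log2 fold change of -0.41 that did not pass (edgeR adjusted p 0.108). Pdk1 (chr2:71873224-71903858, plus strand) was at 69.7, 68.2 and 61.5 CPM after sham and at 103, 111 and 106 CPM after infarction, a rise of 1.58-fold (log2 0.66 ± 0.16, SE; edgeR adjusted p 0.00778). Pdk2 (chr11:95026258-95041354, minus strand), the other pyruvate dehydrogenase kinase gene studied, was at 587, 1053 and 638 CPM after sham and at 536, 525 and 371 CPM after infarction. The 2 kinases therefore had opposite signs, with a log2 fold change of -0.69 ± 0.22 (SE) for Pdk2 and an edgeR adjusted p of 0.0328. The Pdk2 call was lost without sham Salv cKO replicate 2 (log2 fold change -0.39, edgeR adjusted p 0.236) and without infarcted Salv cKO replicate 1, 2 or 3 (edgeR adjusted p 0.0584, 0.0630 and 0.125).

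**Figure D2:**
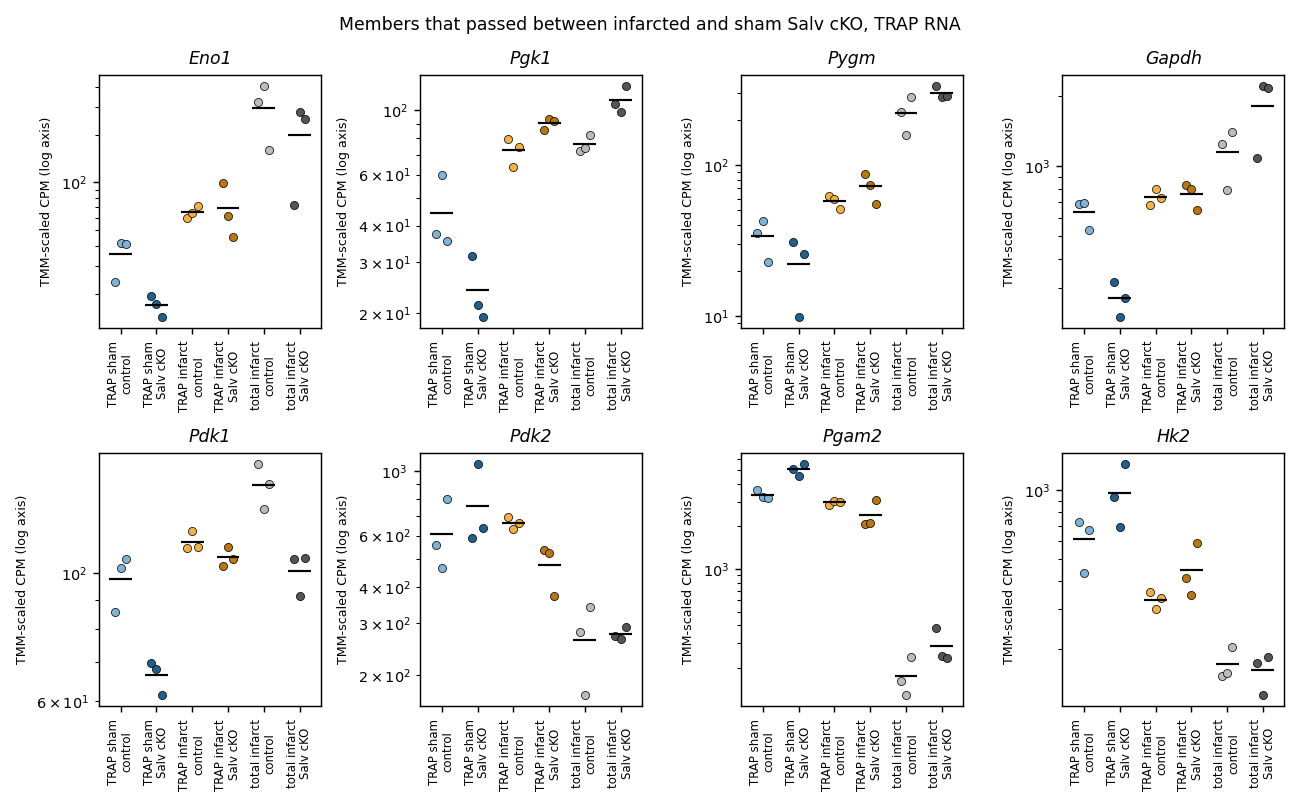
The 8 genes that passed between infarcted and sham Salv cKO TRAP RNA: the vertical axis is TMM-scaled CPM on a log axis and the horizontal axis the 6 groups, with a point for each library and a line at the group mean. In the sham Salv cKO group Gapdh, Pgk1 and Eno1 lie below both infarcted TRAP groups and Pgam2 above them.

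The 8 calls were the same without the 2 libraries with Y chromosome counts, among them Gapdh at 1.45 and Eno1 at 1.89 on the log2 scale. Marker genes of cell types differed between the same 2 groups. The summed level of 10 cardiomyocyte markers was 199206 to 217165 CPM in sham and 144824 to 171996 CPM in infarcted Salv cKO TRAP libraries, with 4 of 10 lower and 1 higher past the threshold. Of 10 fibroblast and matrix markers 2 were higher and none lower past the threshold, and 9 had a positive log2 fold change (median 1.27). Their summed levels were 1050 to 1259 CPM in sham and 1183 to 2251 CPM in infarcted libraries. Of 10 leukocyte markers 1 was lower past the threshold, and 0 had a positive log2 fold change (median -0.70). The part of these differences in the results was not tested. In bulk RNA fewer cells of a type and less RNA per cell cannot be told apart.

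Promoter sequences are shown for 4 of these genes, 2 that rose and 2 that fell, because they changed together in opposite directions in the same libraries. Each is the 250 bases before a RefSeq transcript start (GRCm38.p6), 5′ to 3′ on the gene's strand, and none overlaps an annotated exon. Capitals mark ACGTG, the core of the hypoxia response element that hypoxia-inducible factors bind, read on both strands so that CACGT is the same motif on the other strand. The M-CAT element of TEAD factors, the DNA-binding partners of the Hippo effector YAP, was searched in the same way as CATTCC.
Pgk1, chrX:106186850-106187099, plus strand: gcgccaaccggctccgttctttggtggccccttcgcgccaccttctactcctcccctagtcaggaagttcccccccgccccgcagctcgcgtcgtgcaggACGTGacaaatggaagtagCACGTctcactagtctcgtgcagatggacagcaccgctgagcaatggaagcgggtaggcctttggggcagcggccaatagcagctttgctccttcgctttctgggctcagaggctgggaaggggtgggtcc
Gapdh, chr6:125165774-125166023, minus strand: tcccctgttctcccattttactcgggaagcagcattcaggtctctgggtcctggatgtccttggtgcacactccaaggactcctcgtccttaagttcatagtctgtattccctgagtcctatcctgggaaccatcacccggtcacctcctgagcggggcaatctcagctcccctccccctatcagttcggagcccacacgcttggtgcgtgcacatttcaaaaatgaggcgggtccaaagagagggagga
Hk2, chr6:82774455-82774704, minus strand: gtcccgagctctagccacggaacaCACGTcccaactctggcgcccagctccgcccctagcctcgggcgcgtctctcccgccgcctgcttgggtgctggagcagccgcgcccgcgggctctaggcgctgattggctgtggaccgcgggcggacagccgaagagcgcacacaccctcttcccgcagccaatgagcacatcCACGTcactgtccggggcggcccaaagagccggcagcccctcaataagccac
Pgam2, chr11:5803797-5804046, minus strand: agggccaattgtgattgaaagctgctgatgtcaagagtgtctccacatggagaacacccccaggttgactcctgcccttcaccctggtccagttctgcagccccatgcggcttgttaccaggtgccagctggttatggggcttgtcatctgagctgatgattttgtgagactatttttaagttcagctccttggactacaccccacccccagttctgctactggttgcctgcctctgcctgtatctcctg
ACGTG occurs 2 times in the Pgk1 window, which belongs to a gene that rose, and 2 times in the Hk2 window, which belongs to a gene that fell; the Gapdh and Pgam2 windows hold none. Of the 30 studied genes with an entry, 14 (46.7%) held ACGTG in at least 1 window, against 18.5% of all 27025 genes, and 4 (13.3%) held CATTCC, against 14.4%. Genes with several starts have several windows, so the shares per window were 35.4% of 48 against 16.6% for ACGTG and 10.4% against 12.6% for CATTCC. A match is a string of letters and not a site shown to be bound.

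In control cardiomyocytes none of the 30 genes passed between infarction and sham, where 1.08% of all genes did (0.0878% higher, 0.992% lower). An unadjusted edgeR p under 0.05 was found for 8 of the 30, against 1604 of all 11393 genes. Hk2 had the smallest p: it was at 729, 433 and 668 CPM in sham controls and at 356, 299.7 and 337 CPM in infarcted controls. The infarcted libraries were all lower, with a log2 fold change of -0.92 ± 0.24 (SE) and an edgeR adjusted p of 0.0649. Hk2 did pass with DESeq2 (adjusted p 0.0203) and without sham control replicate 2, the library with Y chromosome counts (log2 fold change -1.11, edgeR adjusted p 0.00542). Pygb was at 638, 512 and 528 CPM after sham and at 901, 902 and 788 CPM after infarction (log2 0.59 ± 0.18, SE; edgeR adjusted p 0.0955, and DESeq2 adjusted p 0.0420). Eno1 was at 23.8, 41.4 and 41 CPM and then at 59.9, 63.9 and 71.3 CPM, with a log2 fold change of 0.83 ± 0.26 (SE; edgeR adjusted p 0.109). For both, all infarcted libraries lay above all sham libraries. Without the 2 libraries with Y chromosome counts the log2 fold changes were 0.54 for Pygb and 0.94 for Eno1 (edgeR adjusted p 0.128 and 0.0575), and Pgk1 passed, at 0.97 (edgeR adjusted p 0.00807) against 0.69 with them (edgeR adjusted p 0.127). The groups did not overlap for 13 of the 30 genes (10 higher, 3 lower), against 18.9% of all genes (9.6% higher, 9.32% lower). The count of genes that passed was 3 with DESeq2, which also called more of all genes than edgeR did (counts below, under the dependence on processing).

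**Figure D3:**
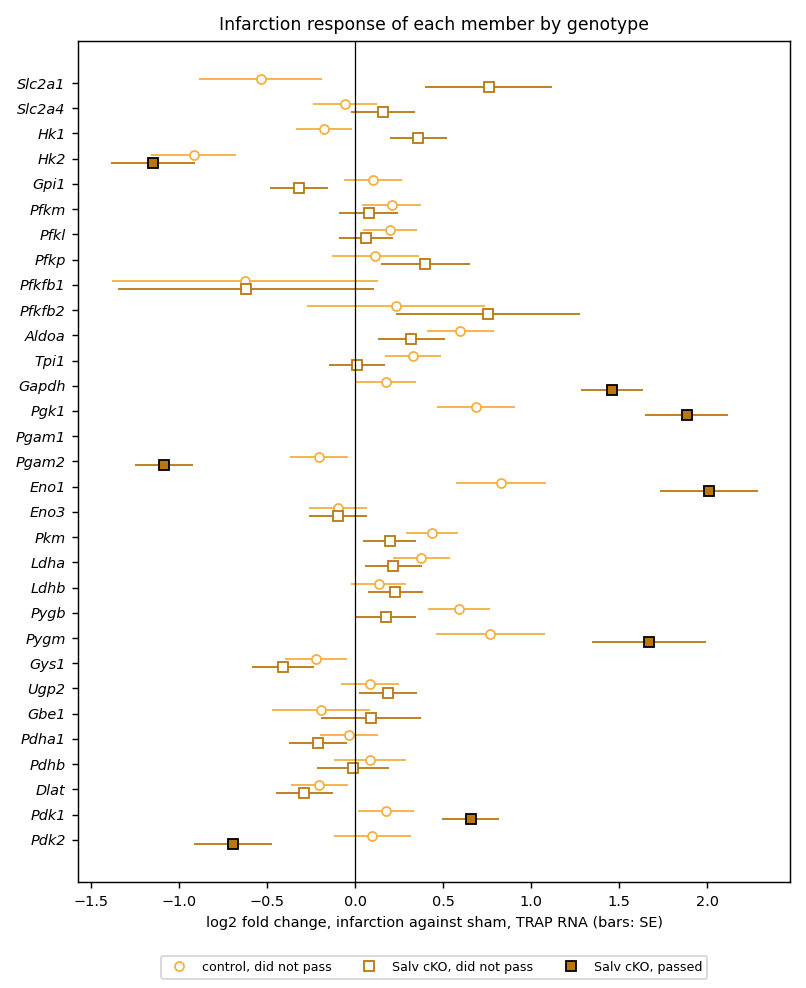
Infarction response in TRAP RNA of the 30 genes tested: the horizontal axis is the log2 fold change of infarcted against sham hearts with its standard error, for control (circles) and Salv cKO (squares), and the vertical axis lists the genes by role. Filled symbols passed an edgeR adjusted p of 0.05 (8 in Salv cKO, 0 in control); Hk2 is negative in both genotypes.

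Whether the infarction response differed by genotype was tested by the interaction term, which no gene passed by edgeR among the 11393 tested (0%). An unadjusted edgeR p under 0.05 was found for 8 of the 30 genes, against 1435 of all 11393. For Gapdh the infarction response was 1.28 ± 0.24 (SE, log2) larger in Salv cKO than in control, with an edgeR adjusted p of 0.0796, and DESeq2 gave 1.26 with an adjusted p of 0.00260. Without sham Salv cKO replicate 1 it was 1.43 (edgeR adjusted p 0.0496), and without the 2 libraries with Y chromosome counts 1.205 (edgeR adjusted p 0.194). For Pgk1 the difference was 1.195 ± 0.32 (SE, log2; edgeR adjusted p 0.182), 0.27 with its copies summed and 0.77 without the 2 libraries with Y chromosome counts. For Pgam2 it was -0.88 ± 0.23 (SE, log2; edgeR adjusted p 0.178, DESeq2 adjusted p 0.0455), and -0.80 without those 2 libraries. Over all 12 TRAP libraries a difference in response was thus called for 2 of these genes by DESeq2. By edgeR it was called for 0 with the low-count filter and for 4 without it (Gapdh, Pgk1, Pgam2 and Eno1). Both alternatives also made more calls over all genes, and those counts are given below under the dependence on processing.

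In sham-operated hearts Gapdh was lower in Salv cKO than in control cardiomyocytes, and Eno1 was lower with a call that depended on the libraries and settings used. These 2 of 30 genes passed in sham TRAP RNA, both lower, against 2.55% of all genes tested (1.36% higher, 1.19% lower), and the median log2 fold change was 0.00 over the 30 genes and -0.03 over all genes. The libraries did not overlap for 10 of the 30 genes (5 higher, 5 lower), against 20.8% of all genes (9.73% higher, 11% lower). This comparison shares the sham Salv cKO libraries with the infarction comparison above. Gapdh was at 688, 692 and 529 CPM in sham controls and at 317, 226 and 270.1 CPM in sham Salv cKO, with no overlap. Its log2 fold change was -1.23 ± 0.18 (SE; edgeR adjusted p 0.000742), and -1.15 without the 2 libraries with Y chromosome counts (edgeR adjusted p 0.00815). Eno1 was at 23.8, 41.4 and 41 CPM in sham controls and at 19.3, 17.1 and 14.3 CPM in sham Salv cKO, a log2 fold change of -1.08 ± 0.28 (SE; edgeR adjusted p 0.0420). The Eno1 call was lost without those 2 libraries (log2 -0.85, edgeR adjusted p 0.239), with its copies summed (edgeR adjusted p 0.0569), and when sham control replicate 2 or 3 or sham Salv cKO replicate 2 or 3 was left out (edgeR adjusted p 0.106 to 0.153).

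Pgk1 and Pgam2 lay at the threshold. Pgk1 was at 37.4, 59.9 and 35.4 CPM in sham controls and at 31.5, 21.3 and 19.4 CPM in sham Salv cKO (log2 -0.87 ± 0.24, SE; edgeR adjusted p 0.0502), but the log2 fold change was -0.06 with its copies summed and -0.44 without the 2 libraries with Y chromosome counts. Pgk1 passed when sham control replicate 1 or 3 or sham Salv cKO replicate 1 was left out (edgeR adjusted p 0.0470, 0.0288 and 0.0203). Pgam2 was at 3599, 3217 and 3157 CPM in sham controls and at 5088, 4585 and 5499 CPM in sham Salv cKO (log2 0.61 ± 0.16, SE; edgeR adjusted p 0.0502), with all Salv cKO libraries above all controls. It passed with RLE scaling (edgeR adjusted p 0.0452) and DESeq2 (adjusted p 0.0141), and had a log2 fold change of 0.53 with both Y-count libraries left out (edgeR adjusted p 0.213). Hk2 was at 0.68 on the log2 scale (edgeR adjusted p 0.132), and at 0.23 without those 2 libraries. Summed cardiomyocyte markers were 160559 to 208400 CPM in sham controls and 199206 to 217165 CPM in sham Salv cKO, with none of the 10 past the threshold. The summed fibroblast and matrix markers were 1204 to 2280 CPM and 1050 to 1259 CPM, also with none past it. Of these 10 markers 0 had a positive log2 fold change (median -0.59). The part of these marker values and of the mitochondrial share in the results was not tested.

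In infarcted hearts no gene of the 31 differed by genotype past the threshold in either fraction. In TRAP RNA 0 of 30 passed, against 0.334% of all genes (0.184% higher, 0.149% lower). An unadjusted edgeR p under 0.05 was found for 4 of the 30, against 838 of all 11393 genes. Hk1 was at 201, 184 and 190.4 CPM in infarcted controls and at 295, 242 and 243 CPM in infarcted Salv cKO, with no overlap (log2 0.45 ± 0.16, SE; edgeR adjusted p 0.476). Slc2a1 was at 5.32, 4.44 and 7.90 CPM and at 10.3, 12.4 and 9 CPM, also with no overlap (log2 0.86 ± 0.34, SE; edgeR adjusted p 0.557). Gys1 was at 122, 111 and 91.0 CPM and at 139.8, 141 and 144 CPM (log2 0.40 ± 0.17, SE; edgeR adjusted p 0.616). DESeq2 also called 0 of the 30. Libraries did not overlap for 7 of the 30 genes (5 higher, 2 lower), against 14.7% of all genes (7.22% higher, 7.47% lower). The lower ones were Pdk2, at 697, 632 and 664 CPM in controls and 536, 525 and 371 CPM in Salv cKO (log2 -0.47, edgeR adjusted p 0.664), and Pkm (log2 -0.18). Besides Hk1, Slc2a1 and Gys1, the higher ones were Dlat (log2 0.21) and Pgk1, at 79.7, 63.7 and 74.8 CPM and at 85.6, 93.4 and 91.6 CPM (log2 0.32). Gapdh averaged 736 ± 60.2 and 758 ± 94.3 CPM (SD, n = 3 each) in infarcted controls and Salv cKO, and Eno1 65.1 ± 5.77 and 69.0 ± 27.8 CPM. Summed cardiomyocyte markers were 184100 to 204125 CPM in infarcted controls and 144824 to 171996 CPM in infarcted Salv cKO, without overlap. Of these 10 markers 3 had positive log2 fold changes (median -0.14). Positive values were found for 0 of 10 leukocyte (median -0.52), 0 of 4 erythroid (-0.88) and 3 of 10 endothelial markers (-0.30). For fibroblast and matrix markers it was 7 of 10 (0.16), and for mural markers 4 of 8 (0.04). In each of these lists 0 passed the threshold, and their part in these values was not tested.

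In whole-heart RNA after infarction 0 of 31 genes passed between genotypes, against 0.255% of all 12945 genes (0.185% higher, 0.0695% lower). An unadjusted edgeR p under 0.05 was found for 7 of the 31, against 1789 of all 12945 genes, and 0 passed with DESeq2. The libraries did not overlap for 6 of the 31 genes (5 higher, 1 lower), against 19.3% of all genes (8.31% higher, 11% lower). A positive log2 fold change was found for 21 of the 31 genes (median 0.17), against 6713 of all 12945 genes (median 0.02). By role, 8 of the 9 lower glycolytic genes were positive (median 0.53) and 1 of the 5 glycogen genes (median -0.23). These genes share the same 6 libraries and are not independent. Pgk1 was at 72.4, 74.2 and 82.5 CPM in controls and at 105, 98.6 and 121 CPM in Salv cKO, with no overlap (log2 0.53 ± 0.18, SE; edgeR adjusted p 0.255). Tpi1 was at 258, 206 and 331 CPM and at 405, 440.1 and 368 CPM, also with no overlap (log2 0.64 ± 0.22, SE; edgeR adjusted p 0.266). Pgam2 was at 160.3, 129 and 239 CPM and at 380.2, 244 and 236 CPM (log2 0.73 ± 0.26, SE; edgeR adjusted p 0.281). Of 10 leukocyte markers 10 had positive values in this comparison (median log2 0.70), with none past the threshold. Their summed levels were 309 to 362 CPM in controls and 441 to 596 CPM in Salv cKO. Positive values were also found for 8 of 10 cardiomyocyte markers (median log2 0.25) and 9 of 10 fibroblast and matrix markers (0.29). The same held for 9 of 10 endothelial markers (0.20) and 4 of 8 mural markers (0.03). Of 5 erythroid markers 5 had positive values (median log2 1.44, 0 past the threshold), with summed levels of 60.6 to 228 CPM in controls and 249 to 325 CPM in Salv cKO. Their part in these values was not tested.

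The largest differences lay between the 2 kinds of RNA. In infarcted hearts 26 of the 31 genes passed between TRAP and total RNA, 17 higher and 9 lower in TRAP, against 74.2% of 13267 genes (34.4% higher, 39.9% lower). All 6 TRAP libraries lay to one side of all 6 total RNA libraries for 17 of the 31 genes (12 higher, 5 lower), against 53.2% of all genes (25.2% higher, 28% lower). The median log2 fold change was 0.54 over the 31 genes and -0.15 over all genes. TRAP differs from total RNA in the cells sampled, in selection for ribosome-bound messages and in library makeup, and these cannot be told apart. Of 10 cardiomyocyte markers 7 were higher and 2 lower in TRAP past the threshold (median log2 fold change 1.74). Of 10 fibroblast and matrix markers 1 was higher and 7 lower (median -1.44). Of 10 endothelial markers 2 were higher and 7 lower (median -0.83), and of 8 mural markers 1 was higher and 5 lower (median -0.85). Leukocyte markers went both ways, with 4 of 10 higher and 3 lower (median 0.26). Both genotypes entered with equal weight, and each library value below is ordered as controls, then Salv cKO.

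Genes higher in TRAP covered the hexose phosphate enzymes (3 of 3 genes) and lactate dehydrogenase (2 of 2), and 5 of the 9 lower glycolytic genes. Pgam2 had the largest difference: it was at 160.3, 129, 239, 380.2, 244 and 236 CPM in total RNA and at 2857, 3033, 2976, 2071, 2129 and 3068 CPM in TRAP RNA. The fractions were far apart in every library, with a log2 fold change of 3.60 ± 0.19 (SE; edgeR adjusted p 2.00e-13), 12.2-fold. Tpi1 followed, at 206 to 440.1 CPM in total RNA and 1363 to 1867 CPM in TRAP (log2 2.35), then Gpi1, glucose phosphate isomerase, at 173 to 260.1 and 856 to 1158 CPM (log2 2.18). Eno3 was at 619 to 1323 CPM in total RNA and 3086 to 4313 CPM in TRAP (log2 2.10 ± 0.16, SE; edgeR adjusted p 8.40e-11). Pyruvate kinase Pkm (1.66), the liver type phosphofructokinase Pfkl (1.55), Ldha and Ldhb (1.31 each), Hk2 (1.24), Slc2a4 (1.18), Pdk2 (1.09) and Hk1 (1.02) all had log2 fold changes above 1, and none of their TRAP libraries overlapped a total RNA library. Aldoa (0.68), Pdhb (0.63), Gys1 (0.56), Dlat (0.54) and Pygb (0.51) passed with smaller log2 fold changes and with overlapping libraries. Pdhb and Dlat encode subunits of the pyruvate dehydrogenase complex.

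The 9 genes lower in TRAP included 3 of the 5 glycogen genes and 3 of the 9 lower glycolytic genes. They also included Pfkfb1 and Pfkfb2, both from the family of enzymes that regulates phosphofructokinase. Pfkfb2, the heart form of the enzyme that makes the phosphofructokinase activator fructose 2,6-bisphosphate, was at 36.9, 111, 56.6, 43.3, 35.6 and 47.1 CPM in total RNA and at 3.61, 2.84, 6.94, 5.94, 2.56 and 9.71 CPM in TRAP. That is a log2 fold change of -3.36 ± 0.35 (SE; edgeR adjusted p 1.17e-06) with every TRAP library below every total RNA library. Pfkfb1 was low in both, at 3.05 to 6.43 and 0.344 to 2.92 CPM (log2 -1.69). Pygm was at 226, 159, 282, 334, 282 and 288 CPM in total RNA and at 62.7, 59.8, 51.5, 87.2, 74.2 and 55.4 CPM in TRAP. Its fold change was -1.96 ± 0.15 on the log2 scale (SE; edgeR adjusted p 1.14e-10), opposite in sign to that of Pygb. Gbe1, the glycogen branching enzyme, had a log2 fold change of -1.60, with 42.1 to 66.6 CPM in total RNA and 11.0 to 21.5 CPM in TRAP. Pgam1, the non-muscle mutase, was at 7.68 to 23.1 CPM in total RNA and 0.771 to 2.58 CPM in TRAP, which are 4 to 20 counts a library (log2 -3.00).

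Eno1 was 1 of 4 genes lower in TRAP whose libraries overlapped. It was at 319, 404, 159.7, 71.8, 278 and 249 CPM in total RNA and at 59.9, 63.9, 71.3, 99.8, 61.4 and 45.7 CPM in TRAP, with infarcted Salv cKO replicate 1 the lowest of total RNA and the highest of TRAP (log2 -1.82 ± 0.36, SE; edgeR adjusted p 0.000963). Gapdh, often used as a reference gene, also differed, at 788 to 2211 CPM in total RNA and 650.3 to 827 CPM in TRAP (log2 -0.92 ± 0.18, SE; edgeR adjusted p 9.11e-05). Slc2a1 (log2 -0.42, edgeR adjusted p 0.0481) and Ugp2, which makes the UDP-glucose used for glycogen (log2 -0.31, edgeR adjusted p 0.0407), passed narrowly, and leaving out 1 library ended the call in 9 and 8 of 12 cases. Pfkp, Pfkm, Pgk1, Pdk1 and Pdha1 did not pass, with log2 fold changes from -0.14 to 0.34. With the trends of fold change on transcript length and GC content removed, Aldoa turned to -0.37 (edgeR adjusted p 0.0316) and Ugp2 to 0.71 (edgeR adjusted p 2.10e-05), so the directions of these 2 depend on that correction. Slc2a1 then did not pass (edgeR adjusted p 0.0977), while Pfkp (log2 1.03), Pgk1 (-0.57) and Pdk1 (0.55) did.

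**Figure D4:**
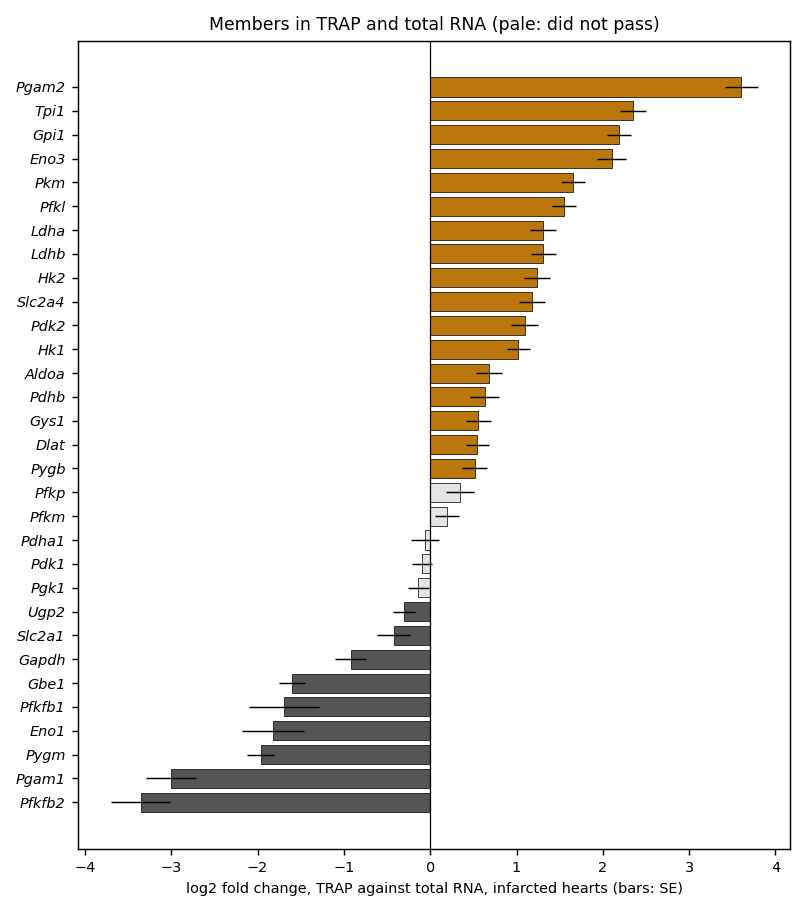
TRAP against total RNA in infarcted hearts for the 31 genes: bars on the horizontal axis are log2 fold changes over 6 TRAP and 6 total RNA libraries with standard errors, ordered by size, and pale bars did not pass an edgeR adjusted p of 0.05. Pgam2 lies at 3.60 and Pfkfb2 at -3.36, the ends of the range.

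The genotype difference was compared between fractions by an interaction term, which 0 of the 31 genes passed, against 0.43% of all genes (0.143% higher, 0.286% lower). An unadjusted edgeR p under 0.05 was found for 5 of the 31, against 1964 of all 13267 genes, and DESeq2 also called 0. The smallest p was that of Pgam2, whose Salv cKO difference in TRAP minus that in total RNA was -1.03 ± 0.35 on the log2 scale (SE; edgeR adjusted p 0.184). Tpi1 had -0.75 ± 0.30 (SE; edgeR adjusted p 0.242) and Gpi1 -0.59 ± 0.27 (SE; edgeR adjusted p 0.307). The term was positive for 0 of 10 leukocyte (median log2 -1.21) and 0 of 5 erythroid markers (-1.70), each with 1 past the threshold. It was positive for 1 of 10 cardiomyocyte (-0.54), 2 of 10 endothelial (-0.56), 3 of 10 fibroblast and matrix (-0.12) and 4 of 8 mural markers (-0.01). The part of these markers was not tested.

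The remaining values complete the account by role, as ranges of group means in CPM. Slc2a1 was at 5.89 to 10.6 in the 4 TRAP groups, and at 10.2 and 11.5 in total RNA of controls and Salv cKO. Slc2a4 was at 427 to 488 in the 4 TRAP groups, and at 202 and 235 in total RNA of controls and Salv cKO. Pfkm, the muscle phosphofructokinase, was at 573 to 678 in TRAP and at 608 and 587 in total RNA, and Pfkp, the platelet type, at 41.5 to 63.9 and at 44.5 and 51.6. Pfkl was at 157 to 197 in TRAP and at 60.2 and 73.5 in total RNA. The regulatory Pfkfb1 and Pfkfb2 stayed at 1.06 to 2.6 and 3.5 to 6.07 in TRAP. No phosphofructokinase gene changed past the threshold between surgeries or genotypes. Of the other enzymes, Gpi1 was at 899.5 to 1104, Tpi1 at 1318 to 1693, Eno3 at 3572 to 3784 and Pgam1 at 0.58 to 2.02 in TRAP. Aldoa was at 2242 to 3475 in TRAP and Pkm at 1361 to 1887, each highest in infarcted controls, where their log2 fold changes against sham of 0.60 and 0.43 did not pass (edgeR adjusted p 0.119 and 0.154). Ldha was at 1044 to 1419 and Ldhb at 1711 to 2173 in TRAP, and neither changed past the threshold between surgeries or genotypes. In total RNA of controls and Salv cKO, Aldoa was at 1932 and 2093, Pkm at 557 and 587, Ldha at 535 and 555, and Ldhb at 778 and 972. Among glycogen genes, Pygb was at 559 to 864, Gys1 at 108 to 185, Ugp2 at 178 to 207 and Gbe1 at 13.9 to 18 in TRAP. Gys1 was at 94.1 and 78.4, Ugp2 at 299 and 223 and Pygb at 602 and 540.4 in total RNA. The complex subunits Pdha1, Pdhb and Dlat were at 361 to 462, 488 to 639.7 and 328 to 451 in TRAP, with no call between surgeries or genotypes. In total RNA they were at 443 and 378, 353 and 389.7, and 239 and 253, and Pdk1 and Pdk2 at 142 and 101 and at 264 and 276. Together the 31 genes took 1.80 to 1.85% of counts outside the mitochondrial genome in sham control and 1.74 to 1.94% in sham Salv cKO TRAP libraries, against 2.12 to 2.16% and 2.03 to 2.26% in infarcted controls and infarcted Salv cKO. As summed TMM-scaled CPM the same 4 groups were at 19616 to 23131, 23158 to 25117, 24175 to 24664 and 20818 to 24288 CPM. On this scale sham controls lay below infarcted controls, and the sham and infarcted Salv cKO ranges overlapped. Sham controls lay below sham Salv cKO by a very narrow margin. The group means of the sum were 21703 and 23906 CPM in these 2 groups, and those of Pgam2 alone 3324 and 5058 CPM.

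Of 22 other glycogen genes 19 were tested in TRAP RNA, and Pygl, the liver phosphorylase beside Sav1, was the 1 that passed by genotype, with log2 fold changes of 2.13 after infarction and 2.09 after sham (edgeR adjusted p 0.000797 and 0.00127), the latter 2.05 without the 2 libraries with Y chromosome counts. Between infarcted and sham Salv cKO, 3 of these 19 glycogen genes fell and 0 rose, against 10.6% and 7.56% of all genes. Those that fell included Gsk3b, a kinase that inhibits glycogen synthase (log2 -1.60, edgeR adjusted p 0.00196). The phosphoglucomutase Pgm2 was another (log2 -0.53, edgeR adjusted p 0.0293). Without the 2 libraries with Y chromosome counts Gsk3b was at -1.28 (edgeR adjusted p 0.00275) and Pgm2 at -0.44, no longer past the threshold (edgeR adjusted p 0.119). In controls Gsk3b fell as well (log2 -1.50, edgeR adjusted p 0.0391), from 110.1 ± 35.3 to 39.9 ± 7.58 CPM (SD, n = 3 each), the 1 glycogen gene of 19 to pass there, where 1.08% of all genes did, and it was at -1.68 without those 2 libraries. Of 24 other glycolysis and glucose uptake genes 12 were tested, 0 passed in controls, and in Salv cKO 2 rose and 1 fell with infarction, against 7.56% and 10.6% of all genes. Slc16a1, the lactate transporter MCT1, rose from 103 ± 16.9 to 163 ± 27.1 CPM (log2 0.64, edgeR adjusted p 0.0322). Its chaperone Bsg fell (log2 -0.83, edgeR adjusted p 0.00872), and Tigar, which degrades fructose 2,6-bisphosphate, rose (log2 0.75, edgeR adjusted p 0.0110). Without the 2 libraries with Y chromosome counts Slc16a1 (0.59, edgeR adjusted p 0.101) and Tigar (0.64, edgeR adjusted p 0.0656) did not pass, and Bsg did (-0.88, edgeR adjusted p 0.00699). Of 10 other pyruvate genes 9 were tested, and the pyruvate dehydrogenase phosphatase Pdp2 was the 1 that passed with infarction in Salv cKO, from 74.0 ± 19.2 to 22.4 ± 11.0 CPM (log2 -1.77, edgeR adjusted p 0.00237, and -1.56 without those 2 libraries). Between TRAP and total RNA the mitochondrial pyruvate carrier genes had opposite signs, Mpc1 at -3.06 and Mpc2 at 1.23 on the log2 scale (edgeR adjusted p 6.32e-11 and 1.10e-07).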

How the data were processed

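Counts per gene symbol were deposited by the authors as whole numbers for 18 libraries; per the labels' protocols they come from Ion Total RNA-Seq libraries, and the submitters' processing notes name STAR 2.5, mm10 and DESeq2. The counter, its use of strand and its treatment of multiply mapped reads are not given in these sources. Groups come from the sample labels. Genes were tested with edgeR 4.0.16 (R 4.3.3): TMM scaling, filterByExpr, robust quasi-likelihood fits, two-sided tests and Benjamini-Hochberg adjustment over all genes, in 3 fits (12 TRAP libraries, 11393 genes; 6 total RNA libraries, 12945 genes; 12 libraries of infarcted hearts, 13267 genes), each tested on simulated data. DESeq2 1.42.0 was an alternative. Gene positions, lengths and copies (at least 95% identity over 200 bases) come from GENCODE vM21 (GRCm38), and promoters from RefSeq, which has an entry for 30 of the 31 genes.

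Library values are given for genes past an adjusted p of 0.05 and for the 3 smallest p in each of the 8 comparisons; where many passed (TRAP against total RNA), some are given as ranges. The members and lists were chosen with earlier results of these data known. Libraries with the same replicate number did not deviate together (mean r -0.0017, -0.0396 and -0.0244 in the 3 fits), so no block was used.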

Additional observations from a re-analysis of the deposited data

How the results depend on the processing

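For infarction against sham in Salv cKO TRAP RNA, the same 8 genes passed under 8 of 8 other settings (RLE scaling, DESeq2, no low-count filter, the replicate block, leaving out both libraries with Y chromosome counts, the 2 groups alone, copies summed, and length and GC trends removed, the last chosen after seeing the data), and 7 or 8 passed with 1 library left out (8 without sham Salv cKO replicate 2, of which 7 are the same genes). For genotype after sham, 2 passed, against 6 with DESeq2, 5 with no filter, 4 with the replicate block, 1 without both Y-count libraries, 1 with the 2 groups alone, 1 with copies summed, and 1 to 3 with a library left out. For infarction in controls, 0 passed, against 3 with DESeq2, 5 with no filter, 1 with the replicate block, 2 without both Y-count libraries, 1 with the 2 groups alone, and 0 to 2 with a library left out. For genotype by surgery, 0 passed, against 2 with DESeq2, 4 with no filter, and 0 to 1 with a library left out. Between TRAP and total RNA 24 to 28 passed throughout; with length and GC trends removed Aldoa was -0.37 and Ugp2 0.71 on the log2 scale, reversed, and the cause was not tested. The other 3 comparisons had 0 under every setting run. Counts over all genes moved more. For genotype after infarction, 38 became 74 with DESeq2, 106 with no filter and 58 with the 2 groups alone. For genotype after sham, 291 became 594, 651 and 127 in that order, and 84 without both Y-count libraries. For infarction in controls, 123 became 416 with DESeq2, 566 with no filter, 408 with the replicate block, 673 without both Y-count libraries and 69 with trends removed, and 0 to 628 with a library left out. For genotype by surgery, 0 became 64 with DESeq2, 160 with no filter and 3 with trends removed. For genotype in total RNA, 33 became 160 with DESeq2, 363 with no filter and 59 with the replicate block, and for genotype by fraction 57 became 251, 302 and 31, and 16 with trends removed. Among the 31 genes the replicate block changed 5 calls: it added Pgk1 (edgeR adjusted p 0.0478) and Hk2 (0.0399) after sham and Hk2 in controls (0.00459), and ended those of Slc2a1 (0.0603) and Ugp2 (0.0573) between fractions. Depth limits Pgam1 and Pfkfb1: 3 counts equal 0.228 to 1.14 CPM in TRAP libraries.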

Other observations

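Of 16 regulators of glucose metabolism 15 were tested in TRAP RNA. Between infarcted and sham Salv cKO hearts 2 rose and 1 fell, against 18.2% of all genes. Esrra, an orphan nuclear receptor that drives mitochondrial and metabolic genes, rose from 32.2 ± 6.62 to 78.6 ± 14.7 CPM (SD, n = 3 each; log2 1.26, edgeR adjusted p 0.000750), and Prkaa2, a catalytic subunit of AMP-activated kinase, from 28.2 ± 3.37 to 53.3 ± 12.6 CPM (log2 0.90, edgeR adjusted p 0.0104). Mef2c, a muscle transcription factor, fell from 412.9 ± 97.6 to 144 ± 17.4 CPM (log2 -1.54, edgeR adjusted p 0.000230). Without the 2 libraries with Y chromosome counts the log2 fold changes were 1.28 for Esrra, 0.80 for Prkaa2 (edgeR adjusted p 0.0494) and -1.34 for Mef2c. In controls 1 of the 15 passed, against 1.08% of all genes: Ppara, the nuclear receptor for fatty acid oxidation genes, was at 16.6 ± 9.28 CPM after sham and 4.53 ± 1.02 CPM after infarction (log2 -1.94, edgeR adjusted p 0.0391, and -2.17 without those 2 libraries). Mef2c then passed in controls too (log2 -1.16, edgeR adjusted p 0.000997), against -0.94 with them (edgeR adjusted p 0.0526). Between TRAP and total RNA of infarcted hearts 3 of the 16 were higher in TRAP and 11 lower, against 34.4% and 39.9% of all genes. Among the 11 lower was Hif1a, a hypoxia-inducible factor (log2 -1.32, edgeR adjusted p 1.10e-08). Among the 3 higher was Egln3, a hydroxylase of such factors (log2 0.84, edgeR adjusted p 4.43e-05). A link between the 2 was not tested.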
